A study of Homo sapiens with 10 samples.

Results

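Binding of the coactivator MAML3 and of RARα, a receptor for retinoic acid, was described from peak lists in the neuroblastoma line SK-N-SH. It was described around 8 genes of sympathetic neurons or chromaffin cells. The genes were CHRNA5, CHRNA3 and CHRNB4, which share 1 window, and TH, DDC, DBH, SLC18A1 and SLC6A2, which have 1 window each. The 6 windows covered 930 kb of hg19 and took in every peak that touched them in any of the 8 deposited lists. They held 49 of the 26482 peaks listed in all, 40 of MAML3 and 9 of RARα. The windows were picked with these peak lists in view, so how many peaks they hold is a description, and none of it was tested.

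Sympathetic neurons make noradrenaline from tyrosine. Tyrosine hydroxylase (TH) carries out the rate-limiting step, aromatic L-amino acid decarboxylase (DDC) turns L-DOPA into dopamine, and dopamine β-hydroxylase (DBH) turns dopamine into noradrenaline inside vesicles. SLC18A1 (VMAT1) loads vesicles with monoamines in chromaffin cells, and SLC6A2, the noradrenaline transporter, takes the transmitter back up. CHRNA3 and CHRNB4 encode the main subunits of the nicotinic acetylcholine receptor of autonomic ganglia, and CHRNA5 an accessory subunit. Neuroblastoma arises in the sympathetic lineage. RARα binds DNA with a retinoid X receptor, classically at repeated hexamers of the AGGTCA kind. MAML3 belongs to the mastermind-like family, known as coactivators of Notch through RBPJ.

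The cells were treated with 1 µM retinoic acid (RA) or with vehicle (untreated, UT), in both cases after 24 hours in medium whose serum had been stripped with charcoal. Chromatin was immunoprecipitated with an antibody to MAML3 or to RARα, with 2 samples labelled as replicates for each antibody and treatment. Each sample is counted below as 1 library. SK-N-SH is an established line, so all libraries come from 1 genetic background, and whether replicates were separate cultures is not stated. No RNA was measured in these samples, and cell identity was therefore not checked against marker genes.

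The MAML3 lists held 7532 and 6230 peaks in RA cells, against 2222 and 6759 peaks in UT cells. The RARα lists held 1103 and 1064 peaks in RA cells, against 1321 and 251 peaks in UT cells. How deeply the libraries were sequenced is not known here, so list length is the only guide to what each could detect. The lists of both untreated MAML3 replicates bear the same library number and index tag, and the list of RARα UT replicate 2 bears a tag for merged data. The labels explain neither tag, so whether those MAML3 lists are separate libraries is not known.

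DNA under the peaks could not be read, because hg19 sequence was not used here. RefSeq promoters, which run from 250 bases before to 50 bases after the start of a transcript, were matched by symbol for 4 of the 8 genes, namely CHRNA3, CHRNB4, DBH and DDC. They are on GRCh38.p14, so their positions must not be set against the hg19 positions of the peaks. This matters most for DDC, where numbers on the 2 builds look alike. Shown 5′ to 3′ are the promoters of CHRNB4 and CHRNA3, whose window held the highest-scoring peaks, and the DDC promoter that held a receptor hexamer. Capitals mark every match, on either strand, to AGGTCA or to GGGTCA, to the variants of these that read AGTTCA and then to GGTTCA, and to TGGGAA, the last being the core letters bound by RBPJ.
CHRNB4, chr15:78641161-78641460, minus strand: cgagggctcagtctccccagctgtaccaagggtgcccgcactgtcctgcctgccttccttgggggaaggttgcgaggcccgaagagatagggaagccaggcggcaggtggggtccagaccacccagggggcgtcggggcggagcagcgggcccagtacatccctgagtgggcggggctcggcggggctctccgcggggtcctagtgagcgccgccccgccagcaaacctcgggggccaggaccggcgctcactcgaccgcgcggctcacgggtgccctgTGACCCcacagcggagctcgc
CHRNA3, chr15:78620947-78621246, minus strand: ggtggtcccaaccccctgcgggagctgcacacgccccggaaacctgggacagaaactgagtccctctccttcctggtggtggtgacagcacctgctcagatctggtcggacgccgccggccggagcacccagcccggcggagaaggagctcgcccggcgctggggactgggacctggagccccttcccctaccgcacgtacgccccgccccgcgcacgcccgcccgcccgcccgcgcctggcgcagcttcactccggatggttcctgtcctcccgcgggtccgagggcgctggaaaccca
DDC, chr7:50565356-50565655, minus strand: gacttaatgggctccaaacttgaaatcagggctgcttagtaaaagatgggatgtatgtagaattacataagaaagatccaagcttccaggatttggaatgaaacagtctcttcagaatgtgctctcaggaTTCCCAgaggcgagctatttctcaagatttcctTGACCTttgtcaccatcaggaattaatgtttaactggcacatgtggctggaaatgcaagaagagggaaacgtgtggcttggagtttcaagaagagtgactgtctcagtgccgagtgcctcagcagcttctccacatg

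Of the receptor hexamers, the CHRNB4 promoter held GGGTCA on its opposite strand, starting at base 30 after the start. The DDC promoter held AGGTCA on its opposite strand, starting 87 bases before the start, and TGGGAA, also on the opposite strand, starting 120 bases before it. The other promoter of DDC held TGGGAA 235 bases before its start, and none of these letters were found in those of CHRNA3 and DBH. Such matches are common. Of the 35116 promoters in the table, 13.8% held AGGTCA, 14.1% held GGGTCA and 24.0% held TGGGAA on either strand. GTTCA, held by 29.0% of all promoters, was found in none of those matched here. No direct repeat of the hexamers with 1, 2 or 5 bases between them was found in them, and such repeats were present in 0.131, 0.0399 and 0.0883% of all promoters.

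All 6 windows held a MAML3 peak, and 2 held a RARα peak, those of the nicotinic receptor genes and of SLC6A2. For MAML3 the windows held 11 and 11 peaks in RA cells, against 7 and 11 peaks in UT cells. For RARα they held 3 and 2 peaks in RA cells, against 2 and 2 peaks in UT cells. The numbers of the treatments therefore met or overlapped for both antibodies. In peaks per Mb, the windows had 7.53 to 11.8 for MAML3, against 0.757 to 2.57 in the whole lists, and 2.15 to 3.23 for RARα, against 0.0855 to 0.450. Of all 100-kb bins of the listed range, 21.4% held a MAML3 peak and 5.82% a RARα peak in any list. Most of the windows were longer than such a bin, at 70 to 220 kb, so the bins are not a like measure.

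**Figure D1:**
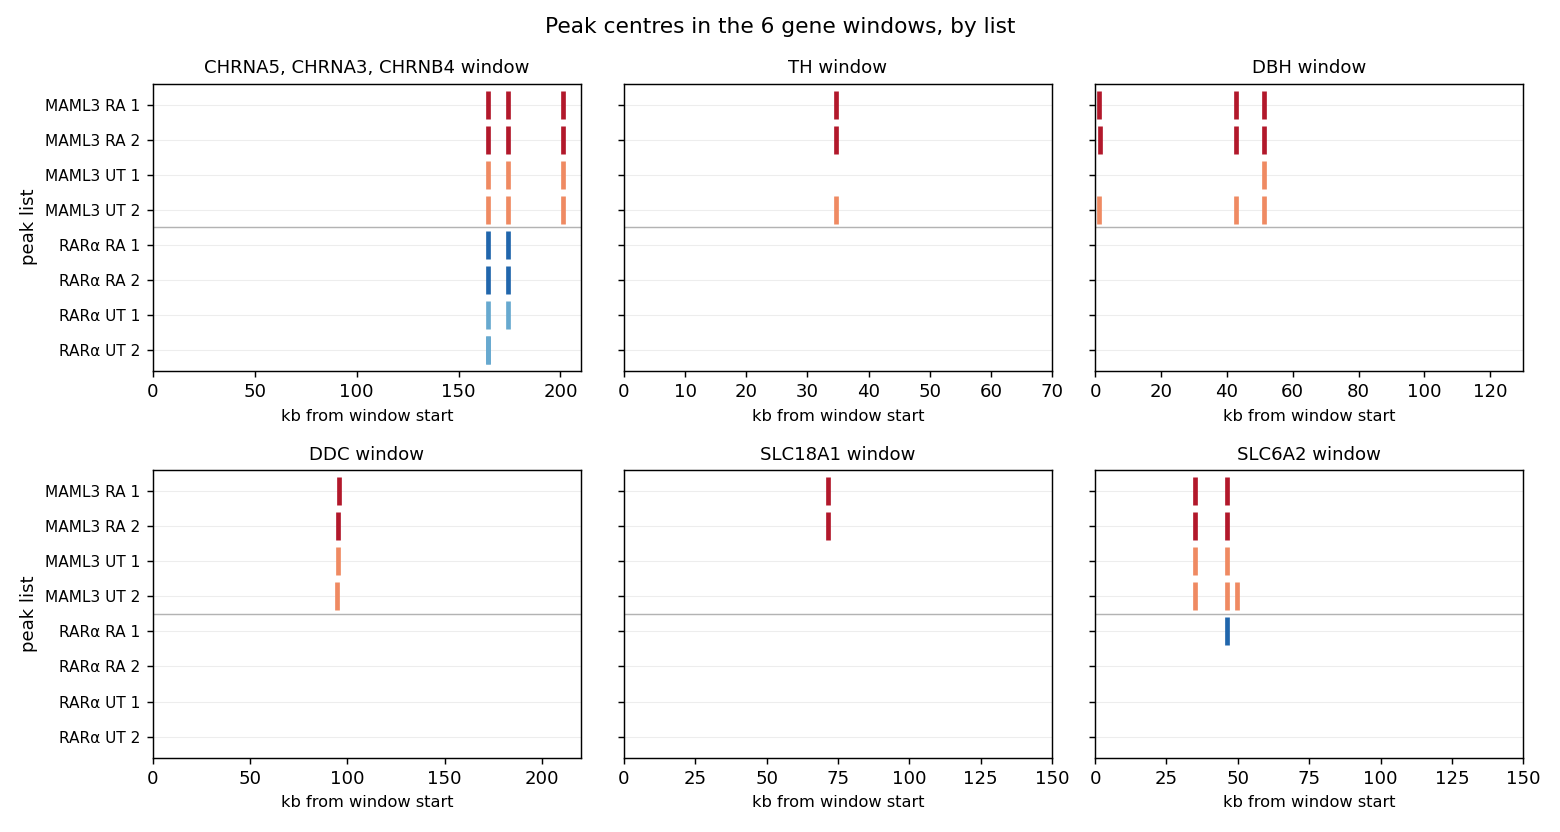
Position of each peak centre in kb from the start of its window (horizontal axis) in the 8 peak lists (rows), for the 6 gene windows. Each tick is 1 peak; MAML3 lists are above the grey line, in reds, and RARα lists are below it, in blues. MAML3 ticks stand in all 6 windows and RARα ticks in 2, always below MAML3 ticks; the 2 peaks of RARα UT 2 lie so close that they appear as 1.

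For each antibody, peaks from its 4 libraries were joined into 1 site where they shared at least 1 bp. The windows held 13 MAML3 sites and 3 RARα sites. Of the MAML3 sites, 6 were present in all 4 libraries (46.2%), against 16.8% of the 10251 MAML3 sites of the whole lists. A further 4 were present in 3 libraries, which makes 10 in at least 3 (76.9%), against 40.4% in the whole lists. Only 2 were in 1 library (15.4%), against 37.2%. Since the windows were chosen on these lists, the shares describe the choice.

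The window of the nicotinic receptor genes, on chromosome 15 from 78800001 to 79010000, held 3 MAML3 sites, each present in all 4 MAML3 libraries. In the gene order of RefSeq, CHRNA5 is followed by CHRNA3, CHRNB4 and then ADAMTS7, a metalloprotease gene. CHRN site 1 lay at 78963957 to 78964573, CHRN site 2 at 78973907 to 78974423, and CHRN site 3 at 79000972 to 79001473. The 3 sites spanned 37517 bp and stood 164 to 201 kb from the start of the window. The rest of that window was empty of peaks in all 8 lists. Of the bins of 210 kb, the length of this window, 0.757% held at least 3 MAML3 sites present in all 4 libraries. That cut was taken from this window's own count, so the share is a description.

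CHRN site 1 was among the highest-scoring MAML3 peaks of every list. The number that the authors gave each peak, a score without a stated scale, was 1852 and 1216 in the RA lists, against 1183 and 2718 in the UT lists. By score it ranked 75 of 7532 and 122 of 6230 in the RA lists, against 18 of 2222 and 28 of 6759 in the UT lists. Scores and ranks of lists of different lengths stand side by side here and do not measure a change between treatments. Among the 1724 MAML3 sites held by all 4 libraries, it stood at position 31 by mean score percentile, where 100 is the top of a list (mean 99.0).

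RARα was listed at the same place in all 4 RARα libraries, from 78964003 to 78964620. The RARα score was 410.1 and 432 in the RA lists, against 782 and 298 in the UT lists. Ranks by score were 67 of 1103 and 64 of 1064 in the RA lists, against 11 of 1321 and 33 of 251 in the UT lists. The RARα site was thus in the upper part of each list. In RARα UT replicate 2 the site was split into a peak with a score of 298 and a lower one with a score of 90.4. It was the only RARα site of the windows in all 4 libraries, as were 6.75% of the 2120 RARα sites of the whole lists. It stood at position 30 of the 143 RARα sites in all 4 libraries by mean score percentile. CHRN site 1 was also the only site of the windows with a peak in all 8 lists, a property of 0.712% of all MAML3 sites.

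CHRN site 2 carried both proteins as well. Its MAML3 score was 882 and 516 in the RA lists, against 508 and 945 in the UT lists. Its RARα score was 105 and 162 in the RA lists and 163 in UT replicate 1, while UT replicate 2, the list of 251 peaks, held no peak there. The peak of UT replicate 1 ranked 397 in its own list and those of the RA lists 640 and 345, each beyond 251. Whether UT replicate 2 could have detected a peak there was not tested. Together the sites made 2 RARα sites present in at least 3 libraries, as were 22.5% of all RARα sites. Of the 210-kb bins, 0.386% held at least 2 such sites, a cut again taken from this window's own count.

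CHRN site 3 had MAML3 peaks alone. Its MAML3 score was 743 and 429 in the RA lists, against 136 and 555 in the UT lists. RARα had no peak there in any list. In each of the 4 MAML3 lists CHRN site 1 had the highest score and CHRN site 3 the lowest, and in each of the 3 RARα lists that held both, CHRN site 1 scored above CHRN site 2. The order within the cluster was thus the same in RA and UT cells.

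**Figure D2:**
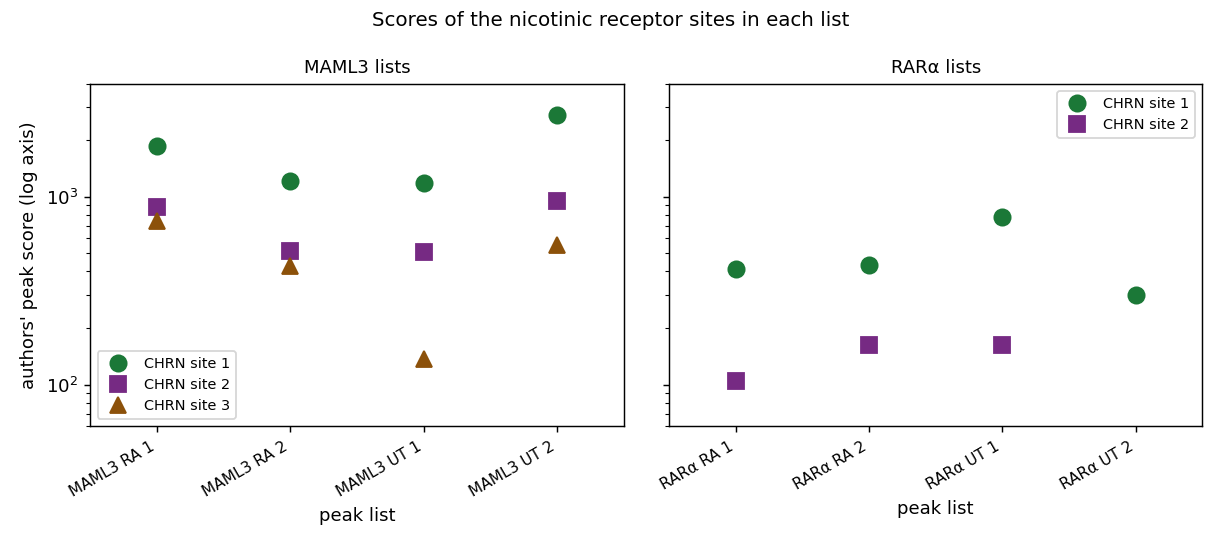
Authors' peak score on a log axis (vertical) of the 3 sites in the CHRNA5, CHRNA3 and CHRNB4 window, in each MAML3 list (left) and RARα list (right). Each point is 1 peak, the highest where a list has more than 1, and a site without a peak has no point; CHRN site 1 is the highest point in all 8 lists, and CHRN site 3 has no point in the RARα lists.

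The TH window, on chromosome 11 from 2180001 to 2250000, held 1 MAML3 site, at 2214513 to 2214862. Its neighbours in gene order are INS, the insulin gene, and ASCL2, a transcription factor gene. The MAML3 score was 77.2 and 134 in the RA lists and 145 in UT replicate 2, and UT replicate 1 held no peak. Its score percentile was 8.06 and 47.6 in the RA lists, against 45.8 in UT replicate 2, so it was low in RA replicate 1 and near the middle of both other lists. Outside this window the nearest listed MAML3 peaks were about 180 kb away, in RA replicates 1 and 2 and UT replicate 2. RARα had no peak in the window.

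The DDC window, on chromosome 7 from 50470001 to 50690000, was the largest and held 1 MAML3 peak per list, but not at 1 position. RA replicate 2 had a score of 196 at DDC site 1, from 50564800 to 50565045, and the UT lists had 93.0 and 171. RA replicate 1 had its peak at DDC site 2, from 50565801 to 50565950, with a score of 316. The sites were 755 bp apart, so the 4 lists put a peak in the same short stretch, and the separation rests on RA replicate 1 alone. With peaks within 1 kb joined, DDC had 1 site in all 4 libraries. RARα had no peak in the window.

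The DBH window, on chromosome 9 from 136450001 to 136580000, held 3 MAML3 sites and no RARα peak. DBH site 3, at 136501110 to 136501559, was in all 4 libraries, with MAML3 scores of 343 and 127 in the RA lists, against 163 and 383 in the UT lists. DBH site 1, at 136451060 to 136451500, had 148 and 112 in the RA lists and 322 in UT replicate 2. DBH site 2, at 136492501 to 136492950, had 126 and 162 in the RA lists and 165 in UT replicate 2. UT replicate 1, the short list, held neither of these 2 sites. DBH site 3 had the highest score of the window in RA replicate 1 and UT replicate 2, whereas in RA replicate 2 it was DBH site 2. DBH site 1 was the member nearest a window edge, with its centre 1.28 kb from the start.

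The SLC18A1 window, on chromosome 8 from 19950001 to 20100000, held the only MAML3 site of the windows that both RA lists and no UT list contained. It lay at 20021409 to 20021725, with MAML3 scores of 122 and 85.6 in the RA lists. These ranked 4445 of 7532 and 5154 of 6230, at score percentiles of 41.0 and 17.3. The lowest scores of those RA lists were 70.01 and 70.03. Both ranks lie beyond 2222, the length of the UT replicate 1 list, and within 6759, the length of the UT replicate 2 list. Whether either UT list could have detected a peak there was not tested. RARα had no peak in this window.

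The SLC6A2 window, on chromosome 16 from 55640001 to 55790000, held 3 MAML3 sites. SLC6A2 site 1, at 55674774 to 55675373, was in all 4 libraries, with scores of 664 and 558 in the RA lists, against 209 and 542 in the UT lists. SLC6A2 site 2, at 55686124 to 55686582, was also in all 4, with scores of 489 and 271 in the RA lists, against 134 and 642 in the UT lists. SLC6A2 site 3, at 55689631 to 55689876, was in UT replicate 2 alone, with a score of 113. The order of sites 1 and 2 was not fixed, with site 1 higher in both RA lists and UT replicate 1 and site 2 higher in UT replicate 2.

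RARα was listed at SLC6A2 site 2 in 1 library, RA replicate 1, with a score of 153 and a rank of 381 of 1103. The other RA list and both UT lists had no peak there. A RARα site in 1 library was the usual case, as 56.0% of all RARα sites were in 1 library. A peak in 1 of 2 RA libraries does not part the treatments.

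Just outside the SLC6A2 window stood further MAML3 peaks, 44.3 to 45.6 kb from its start. The site at 55593974 to 55594423 was in all 4 libraries, with scores of 1125 and 1085 in the RA lists, against 235 and 673 in the UT lists. About 1 kb further on, the site at 55595355 to 55595730 was in both UT lists and in neither RA list, as were 0.683% of all MAML3 sites. Its scores in the UT lists were 166 and 804, and in UT replicate 2 it ranked 390 of 6759. Between these sites, that at 55595182 to 55595289 was in UT replicate 1 alone, with a score of 80.8. Around the other windows no list had a peak within 50 kb outside an edge.

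Where RARα was listed, MAML3 was listed too. All 3 RARα sites of the windows overlapped a MAML3 site, as did 84.4% of all RARα sites. The MAML3 site was in each case held by all 4 MAML3 libraries. Of all 2120 RARα sites, 47.0% overlapped such a site. Seen from MAML3, 3 of 13 sites (23.1%) overlapped a RARα site, against 17.0% in the whole lists. Among MAML3 sites in all 4 libraries the numbers were 3 of 6 in the windows, against 55.7% in the whole lists. The share of MAML3 sites that a RARα site overlapped was thus near that of the whole lists. The 4 windows of TH, DDC, DBH and SLC18A1 had MAML3 alone. The RARα lists were much shorter than the MAML3 lists, and whether RARα was below its threshold there was not tested. Peak centres of the antibodies lay 4 to 259 bp apart at CHRN site 1, where the widest distance is to the split-off peak of RARα UT replicate 2. They lay 1 to 44 bp apart at CHRN site 2 and 0.5 to 28 bp apart at SLC6A2 site 2.

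**Figure D3:**
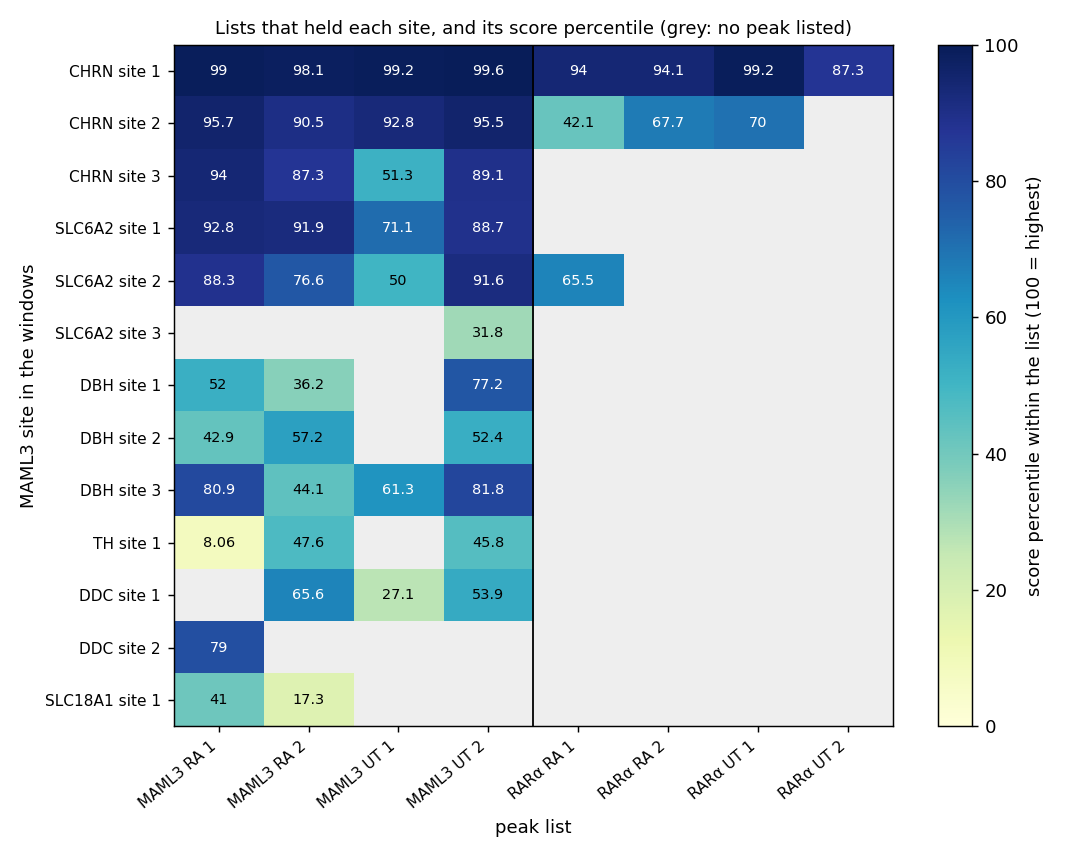
Score percentile within its list (colour and number, 100 is the highest peak) of each of the 13 MAML3 sites of the windows (rows) in the 8 peak lists (columns), with RARα peaks on the row of the MAML3 site they overlap. Grey cells have no listed peak; CHRN site 1 is at or above 87.3 in all 8 lists, and RARα cells are filled in 3 rows.

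Retinoic acid parted few of these sites. A site was counted as gained if both RA lists and no UT list had it, and as lost in the reverse case. Of the 13 MAML3 sites 1 was gained (7.69%), that of SLC18A1, against 9.37% of all MAML3 sites. None was lost, against 0.683% of all MAML3 sites. Of the 3 RARα sites none was gained and none was lost, against 5.42 and 0.472% of all RARα sites. The share of MAML3 sites gained is near that of the whole lists. The counts of 0 come from too few sites to be set against such low shares. With 2 libraries against 2 an exact permutation test could not give a two-sided p below 0.33.

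The gained count depended on UT replicate 2. Without that library 4 MAML3 sites were gained, with TH, DBH site 1 and DBH site 2 joining SLC18A1, because UT replicate 1 lacked all of them. That is 4 of 12 sites, at a setting where 35.7% of all MAML3 sites were gained. Without RA replicate 2, SLC18A1 and DDC site 2 made 2 of 13 gained, against 26.9% of all sites, and DDC site 1 was lost, as were 1.25% of all. Without UT replicate 1, SLC6A2 site 3 was lost, as were 13.5% of all MAML3 sites. For RARα, the SLC6A2 site was gained without RA replicate 2 and CHRN site 2 without UT replicate 1, against 25.3 and 25.0% of all RARα sites. Without RARα UT replicate 2, CHRN sites 1 and 2 were in all 3 remaining RARα lists, as were 20.7% of all RARα sites. They were then in all remaining lists of both antibodies, for which no share of all sites was computed.

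When the MAML3 lists were all shortened to the 2222 peaks of highest score, no site of the windows was gained or lost. Shares of all sites were not computed for shortened lists, so these counts only describe the windows. The 3 CHRN sites and SLC6A2 sites 1 and 2 stayed in all 4 lists. DBH site 3 was then missing from RA replicate 2. DBH site 1 was left in UT replicate 2 alone, DDC site 1 in RA replicate 2 and UT replicate 1, and DDC site 2 in RA replicate 1. The sites of TH and SLC18A1, DBH site 2 and SLC6A2 site 3 were in no shortened list. When the RARα lists were shortened to 251 peaks, CHRN site 1 remained in all 4 lists, and the other RARα sites were in none.

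**Figure D4:**
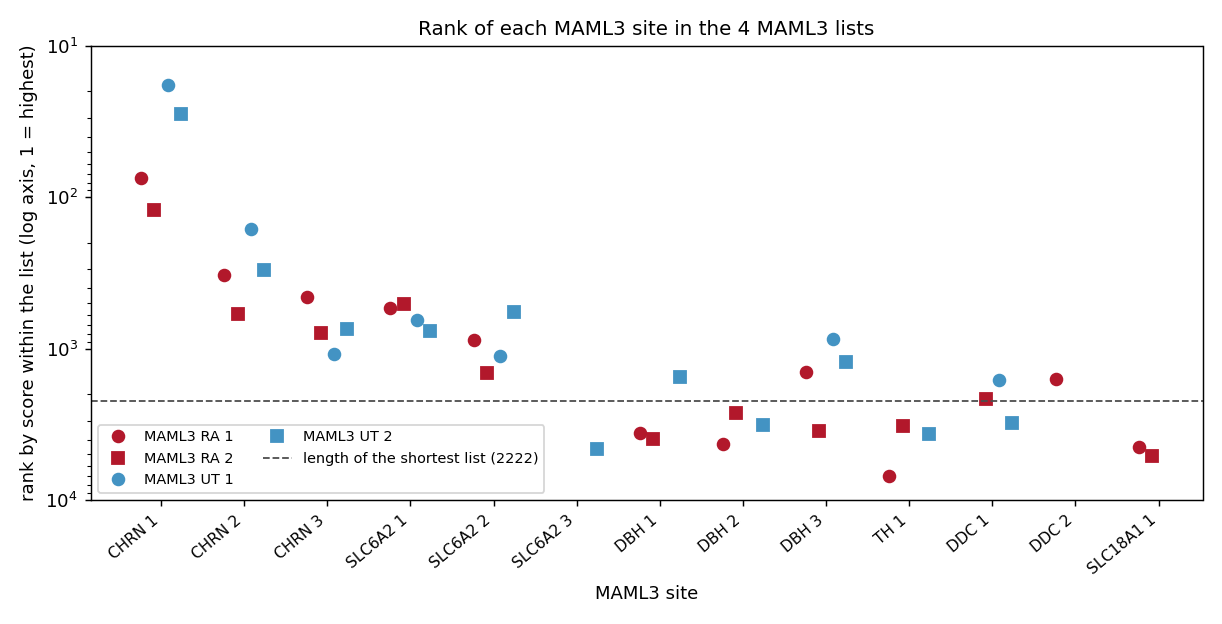
Rank by score (vertical, log axis, 1 is the highest) of each MAML3 site of the windows (horizontal) in the RA lists (red) and UT lists (blue), with circles for replicate 1 and squares for replicate 2. The dashed line is the length of the shortest MAML3 list, 2222 peaks; all points of the 3 CHRN sites and of SLC6A2 sites 1 and 2 are above it, and those of TH and SLC18A1 are below it.

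The 8 lists and 6 windows make 48 pairs, of which 26 held a peak and 22 did not. The authors numbered the peaks along the genome and some numbers are not listed, so it could be seen whether a number was missing across an empty window. Of the 3 empty MAML3 pairs, SLC18A1 in UT replicates 1 and 2 had listed peaks on both sides of the window, numbered without a gap. TH in UT replicate 1 had no listed peak before the window on its chromosome, and the numbers ran on without a gap from the last peak of the chromosome listed before it. Of the 19 empty RARα pairs, 9 had peaks on both sides without a gap, 5 had a gap between them, and 5 had a peak on 1 side alone. In all 7 of the 19 had a gap, since TH in RARα RA replicate 1 and UT replicate 2 had one too. For TH the numbers were followed from the last peak of the chromosome listed before. Where there was a gap, a removed peak may or may not have been in the window.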

How the data were processed

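Analysis began from 8 peak lists that the authors deposited, 1 for each immunoprecipitated library; the 2 input samples were not analysed here. Libraries were amplified for 15 cycles, per the labels' protocols. Alignment to hg19 and peak calling are recorded only as tool names, BWA 0.5.9 with MACS and bedtools, per the submitters' processing notes. The sources used here give neither the threshold nor the use of the input, nor what the lists were filtered on or intersected with. Each list has a chromosome, start, end, peak name and 1 number, taken here as the authors' score; its lowest deposited value lay between 70.00 and 70.13 in each list. The score ranked peaks within a list; scores of several lists are given side by side without reading a change from them, and mean percentiles only order sites. Its scale is not stated, so no precision could be set. Read depth is unknown too.

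Positions are 1-based. Peaks sharing 1 bp were joined into sites per antibody across the whole lists, in Python 3.11.15, and the joining was tested on simulated lists. No test was run: counts stand beside the same counts over all sites. A gene annotation of hg19 was not used here, so distances to start sites, other genes of the pathway and sequences under peaks are not given. Gene order came from RefSeq on GRCh38.p14, names only. Every site in the windows is named, by a rule. The members, windows and lists were chosen with earlier results of these data known. Alternatives were 50% overlap, joining within 1 kb, only the upper 50% of each list by score, equal list lengths, peak centres, windows widened by 50 kb, and each replicate left out in turn.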

Additional observations from a re-analysis of the deposited data

How the results depend on the processing

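Of 145 values of 13 counts under the alternatives, 128 were within 1.5 times the count reported and 17 were not. The 50% overlap and the joining within 1 kb could not change the counts of peaks or of windows without a peak. With the 50% of peaks with the highest score, and with lists of equal length, 0 MAML3 sites were gained and 2 windows, TH and SLC18A1, had no peak in any list. With lists of equal length the windows also held 5 RARα peaks and 1 RARα site, and 1 MAML3 site was overlapped by RARα. Shares of all sites were not computed at either setting. With windows widened by 50 kb, 1 MAML3 site was lost, as were 0.683% of all MAML3 sites. Taking the 2 untreated MAML3 lists as 1 library, an alternative chosen after the data were seen, 1 site was gained, 1 was lost and 9 were in all MAML3 libraries, against 961, 1437 and 3986 of all 10251 MAML3 sites. Leaving out each replicate in turn gave 1 to 4 gained and 0 to 1 lost MAML3 sites, and 6 to 9 in all remaining libraries. Of all MAML3 sites, 9.63 to 35.7% were then gained, 1.25 to 13.5% lost and 19.5 to 38.9% in all remaining libraries. For RARα, leaving out each replicate gave 0 to 1 gained sites and 1 to 2 in all remaining libraries. The shares of all RARα sites were 5.98 to 25.3% and 8.77 to 20.7%. With any 1 replicate left out, 1 to 2 sites were in all remaining lists of both antibodies. The share of all MAML3 sites at those settings was not computed. No paired analysis was possible because the results come from no test. A site missing from a short list is not shown to be unbound.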
